A study of Mus musculus with 5 samples.

Results

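The genes described are 8 nuclear genes for subunits of cytochrome c oxidase, picked by symbol, namely Cox4i1, Cox5a, Cox5b, Cox6a1, Cox6a2, Cox7a1, Cox7a2 and Cox8a. Each had a single transcript, which gave 8 of the 26531 transcripts in the deposited table (8 of 22098 gene symbols).

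Cytochrome c oxidase is the last enzyme of the mitochondrial respiratory chain and passes electrons from cytochrome c to oxygen. Its catalytic core is encoded in the mitochondrial genome, and nuclear genes encode the smaller subunits around it. Several of these subunits exist as tissue isoforms. In mammals Cox6a1 and Cox7a2 encode the broadly expressed (liver-type) forms of subunits 6a and 7a, and Cox6a2 and Cox7a1 encode the forms typical of heart and skeletal muscle. In mice Cox6a2 transcripts are also known from plasmacytoid dendritic cells (pDCs), the interferon-producing dendritic cells.

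The 8 genes were proposed with earlier results of these libraries known, among them the values of Cox6a2 in every library. Cox6a2 is therefore described here without a test. RNA was sequenced from 5 libraries of bone marrow cells of C57BL/6 mice aged 6 to 7 weeks, sorted as Hardy fraction A, the earliest B lineage stage in Hardy's scheme, without removal of other lineages. The labels call these cells proB cells. There were 2 libraries of the genotype Ikaros_ZnF1-/- (dF1), 1 of Ikaros_ZnF4-/- (dF4) and 2 of wt. Ikaros is a DNA-binding protein needed for lymphocyte development, and dF1 and dF4 carry mutations of different zinc fingers, finger 1 and finger 4. The mutations themselves are not visible in these values. The dF1 libraries are called biological replicates in the series' design text. Whether separate mice gave the wt libraries is not stated, so that p-values reflect only the variation among these samples, which may be technical.

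Levels are given in RPKM (reads scaled to transcript length and to the library total). This scaling allows comparison between genes, except where reads that match several places may affect a value. The treatment of such reads is not stated. The dF4 library, which the submitters describe as low in coverage, was shallow, at about 598000 reads by the spacing of its lowest values, and the depth of the other libraries could not be estimated. The dF4 library also stood apart in its cell type markers. Its 14 neutrophil markers summed to 33655 RPKM, against 218 and 846 in dF1 and 401 and 1073 in wt. Its 13 pDC markers summed to 622 RPKM, against 4461 and 4883 in dF1 and 4518 and 5015 in wt. Its 12 early B lineage markers summed to 1478 RPKM, against 396 and 401 in dF1 and 528 and 356 in wt, and none was at 0 in any library. In bulk samples, fewer cells of a type and less RNA per cell cannot be told apart.

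Promoter sequences show how the isoform pair of subunit 7a differs in sequence and what one broadly expressed gene carries. They are the 250 bases before and 50 bases after the gene start, from RefSeq on GRCm38.p6, written 5′ to 3′ on the gene's strand. Capitals mark the core of the motif of NRF1 (nuclear respiratory factor 1), a regulator of genes of the respiratory chain. The letters searched were GCGCATGC on both strands, where overlapping matches merge.
Cox7a1 (chr7:30183921-30184220, plus strand): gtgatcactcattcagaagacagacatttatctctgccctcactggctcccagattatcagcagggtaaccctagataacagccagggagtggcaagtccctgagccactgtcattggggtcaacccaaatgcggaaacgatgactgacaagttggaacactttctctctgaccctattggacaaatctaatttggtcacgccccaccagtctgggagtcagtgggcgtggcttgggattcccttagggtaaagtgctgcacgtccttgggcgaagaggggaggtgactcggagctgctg
Cox7a2 (chr9:79759804-79760103, minus strand): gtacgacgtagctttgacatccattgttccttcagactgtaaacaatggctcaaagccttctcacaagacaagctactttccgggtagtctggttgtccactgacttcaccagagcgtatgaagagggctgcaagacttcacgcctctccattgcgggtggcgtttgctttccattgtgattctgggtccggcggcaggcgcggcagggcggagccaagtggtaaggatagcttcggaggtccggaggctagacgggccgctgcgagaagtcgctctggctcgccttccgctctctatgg
Cox6a1 (chr5:115348909-115349208, minus strand): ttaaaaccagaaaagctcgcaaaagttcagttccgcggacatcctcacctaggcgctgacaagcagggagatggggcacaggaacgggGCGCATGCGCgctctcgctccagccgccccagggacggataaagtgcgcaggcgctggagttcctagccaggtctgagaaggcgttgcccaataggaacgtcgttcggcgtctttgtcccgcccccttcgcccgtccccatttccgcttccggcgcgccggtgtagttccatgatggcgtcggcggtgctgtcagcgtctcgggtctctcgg
Of the 8 genes, 6 had an entry in the promoter table, and Cox4i1 and Cox6a2 had none. The Cox7a1 window held 7 CG dinucleotides, which is the median over the 32851 promoters in the table. The Cox7a2 window held 20 and the Cox6a1 window 32, and 73.5% and 90.5% of promoters held fewer. The windows of Cox5a, Cox5b and Cox8a held 35, 27 and 19. The NRF1 core was found in the Cox6a1 window, and in 2.71% of all promoters. An ETS motif core (CCGGAAGT, both strands) was found in the Cox8a window, and in 3.89% of all promoters. These are matches of letters, not sites shown to be bound.

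In the dF1 and wt libraries the muscle isoform of subunit 6a was among the most abundant transcripts, while that of subunit 7a was near the lower limit. Cox6a2 was at 141.9 and 206 RPKM in dF1 (173.95 ± 45.3, SD, n = 2), was listed at 0 in dF4, and was at 246 and 392.1 RPKM in wt (319.05 ± 103, SD, n = 2). Both dF1 libraries lay below both wt libraries. Ranked by RPKM, Cox6a2 was transcript number 253 and 135 in the dF1 libraries and number 103 and 44 in the wt libraries. Cox7a1 was at 1.1 and 0.7 RPKM in dF1, was listed at 0 in dF4 and was at 0.8 and 1 RPKM in wt, so the groups of dF1 and wt overlapped. At the wt level of Cox7a1 the dF4 library would hold on average 0.199 reads, so its absence there was not detectable at this depth.

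**Figure D1:**
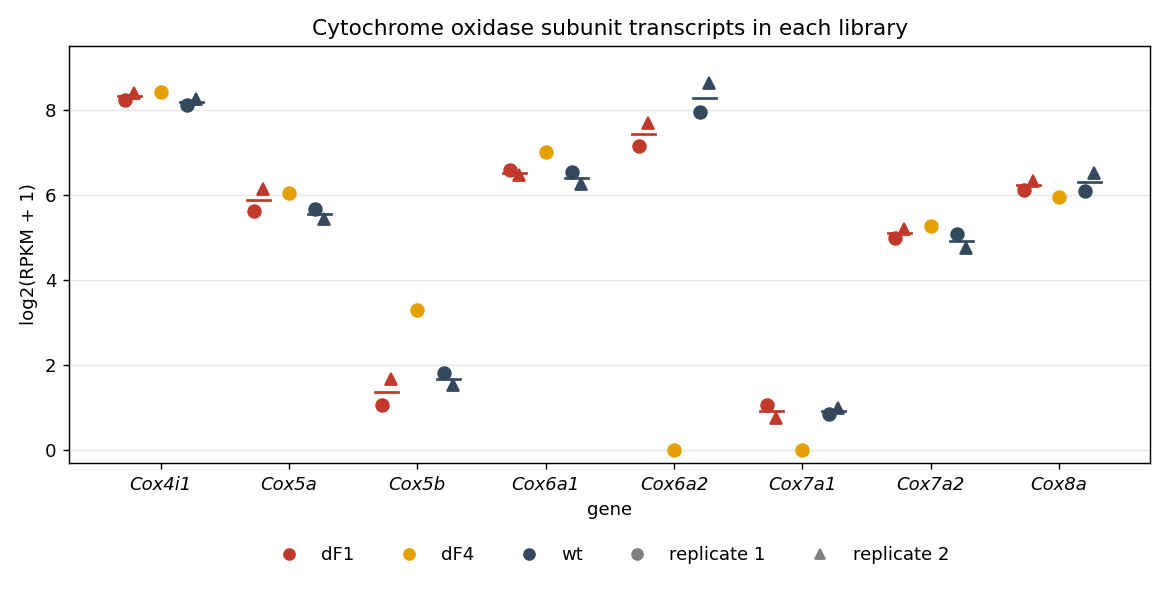
Transcript level of each subunit gene as log2(RPKM + 1) (y axis) by gene (x axis), with dF1 in red, dF4 in orange and wt in dark blue. Circles are replicate 1, triangles replicate 2 and short lines the group means. Cox6a2 separates the libraries most widely and is at 0 in dF4, while Cox4i1, Cox5a, Cox6a1, Cox7a2 and Cox8a stay within 1 unit over all 5 libraries.

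Of the subunit 6a transcripts, the muscle isoform made up the larger part in dF1 and wt and none of what was counted in dF4. Cox6a2 as a share of Cox6a1 and Cox6a2 together was 59.9% and 70.3% in dF1 (65.1% ± 7.36, SD, n = 2), 0% in dF4, and 72.8% and 84.0% in wt (78.4% ± 7.86, SD, n = 2). The highest dF1 share lay below the lowest wt share. With 3 reads in place of 0, the dF4 share would be 5.58%. The summed level of both isoforms was 236.8 and 292.9 RPKM in dF1, 128.3 RPKM in dF4, and 337.7 and 467.0 RPKM in wt. For subunit 7a, the muscle isoform Cox7a1 made up 3.43% and 1.92% in dF1, 0% in dF4, and 2.37% and 3.70% in wt. In the dF1 and wt libraries subunit 7a was thus almost entirely of the broadly expressed form. In dF4 the Cox7a1 share would be 26.5% with 3 reads in place of 0, and the 95% Poisson upper limit of that count is higher still. The transcripts of Cox6a1 and Cox6a2 shared no stretch of at least 100 bases at 95% identity with each other or with another gene in GENCODE M21. Shorter shared stretches were not sought, so whether all reads of the 2 isoforms can be told apart was not tested.

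**Figure D2:**
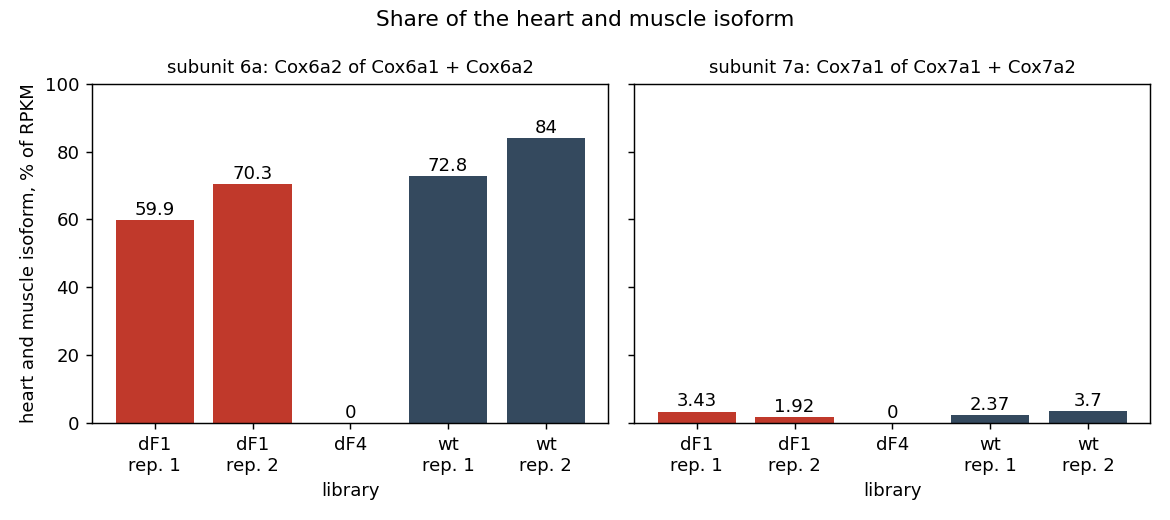
Heart and muscle isoform as a percent of the RPKM of both isoforms (y axis) in each library (x axis), for subunit 6a (left) and subunit 7a (right). Bars are single libraries, with dF1 in red and wt in dark blue, and the dF4 value is 0 in both panels. Cox6a2 holds 59.9% to 84.0% of subunit 6a in dF1 and wt, and Cox7a1 at most 3.70% of subunit 7a.

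The dF4 library was deep enough to show Cox6a2 at the level of dF1 or wt. At the mean wt level the library would have held about 126 Cox6a2 reads, and at the mean dF1 level about 68.8. The floor of 3 reads is 7.58 RPKM for Cox6a2, which is 42.1-fold below the wt mean and 22.9-fold below the dF1 mean. The 95% Poisson upper limit of its count of 0 is somewhat higher, at 9.32 RPKM, and gives smaller folds. Of the 356 transcripts at 100 RPKM or more in both wt libraries, 2 were listed at 0 in dF4 (0.562%), namely Cox6a2 and Cd300c, a leukocyte surface receptor. Intervals and floors given for dF4 cover counting error only.

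In dF1 the level of Cox6a2 was 54.5% of wt, a difference of -0.86 on the log2(RPKM + 1) scale, which understates the change of low transcripts. Replicate 2 was higher than replicate 1 by 0.53 in dF1 and by 0.67 in wt, so the spread within a genotype was not much smaller than the difference. Leaving out a single library gave -0.52 (without wt replicate 2), -0.59 (without dF1 replicate 1), -1.12 (without dF1 replicate 2) and -1.19 (without wt replicate 1). Over all 12215 transcripts averaging 1 RPKM or more, dF1 and wt did not overlap for 34.7%, so separate groups of 2 and 2 are common in these libraries.

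Other genes of pDCs were set beside Cox6a2, since the sort held many of their transcripts. In dF4, 13 of 13 pDC markers lay below both wt libraries, with a median difference of -3.18, against 0.00 over the 8759 transcripts averaging 5 RPKM or more. By the size rule given below, 10 of the 11 markers that could be counted were lower, against 10.4% of 7867 transcripts. Klk1 and Cd300c were listed at 0 in dF4, and Siglech, a lectin of pDCs, was at 5.5 RPKM. The difference of Cox6a2, at -8.28, and those of the markers listed at 0 are set by their wt level and the pseudocount. In dF1, 4 of 13 markers were lower in both libraries than in both wt libraries and 2 were higher, where 34.7% of all tested transcripts did not overlap in either direction. Their summed levels in dF1 (4461 and 4883 RPKM) overlapped those in wt (4518 and 5015 RPKM). Cox6a2 as a percent of that sum was 3.18 and 4.22 in dF1, 0 in dF4, and 5.44 and 7.82 in wt. As a percent of Siglech it was 18.1 and 25.5 in dF1, 0 in dF4, and 26.3 and 46.8 in wt. Relative to the sum and to Siglech, the dF1 values lay below the wt values, with a small gap between 25.5 and 26.3 for Siglech. That did not hold for every single marker, since relative to Ccr9, Klk1 or Tlr7 the dF1 and wt values of Cox6a2 overlapped. The part that the number of pDCs has in the Cox6a2 level was not tested.

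**Figure D3:**
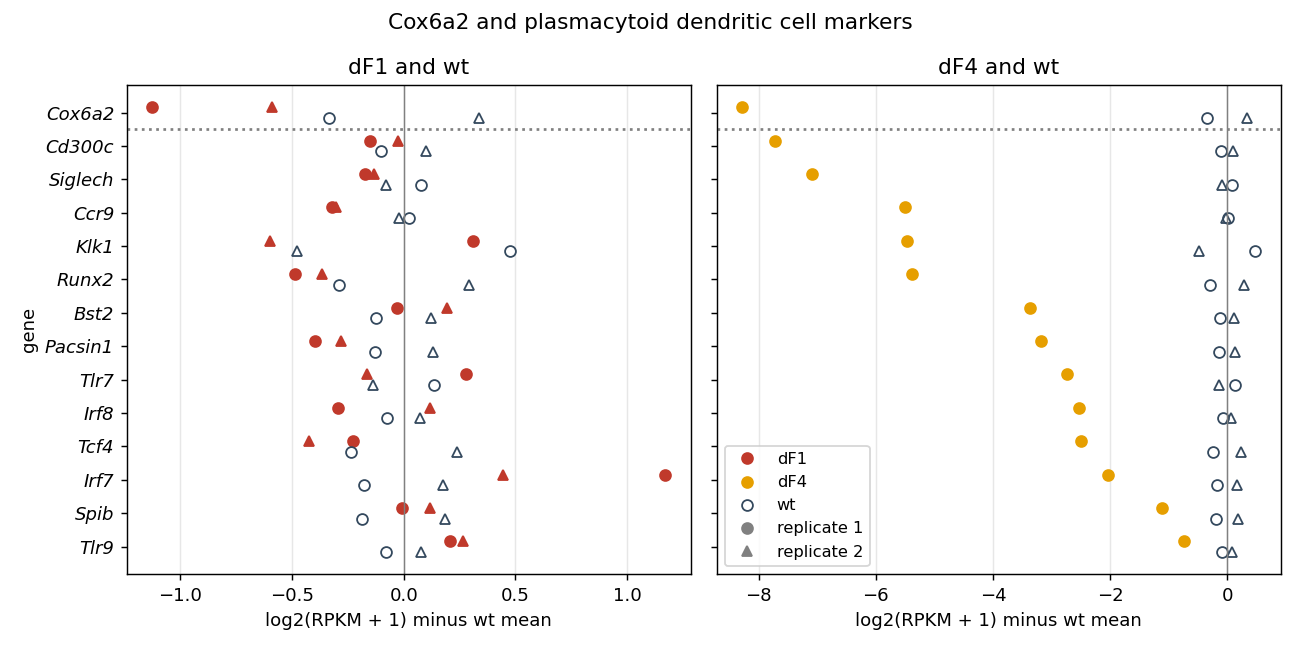
Cox6a2 (top row) and 13 pDC markers, as log2(RPKM + 1) of each library minus the wt mean (x axis) by gene (y axis), for dF1 and wt (left) and dF4 and wt (right, on a wider scale). Filled red points are dF1, filled orange points dF4 and open points wt, with circles for replicate 1 and triangles for replicate 2. The dF1 mean of Cox6a2 lies 0.86 below the wt mean, and in dF4 all 14 genes lie below it.

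The genes with profiles nearest to Cox6a2 were found by the root mean square distance over the 5 libraries, each profile centred on its own mean of log2(RPKM + 1), among 7835 named genes averaging 5 RPKM or more. They were Cd300c (0.40), Siglech (0.55), the integrin subunit Itgax (0.75), Havcr1, also called Tim-1 (0.83), and Adam11 (0.85), where the median gene lay at 3.18. Their dF4 values were 0, 5.5, 0.4, 0 and 0 RPKM. In the dF1 libraries Cd300c was at 189.6 and 207.4 RPKM, against 196.6 and 226.2 RPKM in wt. These distances were set mostly by the dF4 library, and 2 of the 5 genes are among the pDC markers.

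Markers of striated muscle, where Cox6a2 and Cox7a1 are known best, were mostly absent. Their 18 genes summed to 38.8 and 38.3 RPKM in dF1, 28.3 RPKM in dF4, and 49.2 and 50.7 RPKM in wt. Of them, 10 were listed at 0 in all 5 libraries, among them the fast myosin heavy chains Myh1, Myh2 and Myh4 and the myoglobin gene Mb. The skeletal actin Acta1 was at most 0.1 RPKM. Tnni2, a troponin subunit, made up much of the sum, at 16.5 and 14.6 RPKM in dF1, 10 RPKM in dF4, and 24.6 and 25.6 RPKM in wt. The calcium pump gene Atp2a1 was at 15.2 and 14.7 RPKM in dF1, 1 RPKM in dF4, and 16.1 RPKM in both wt libraries. The other muscle-type subunit in the table, Cox8b, was listed at 0 throughout.

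The broadly expressed subunits differed little between dF1 and wt. Cox4i1, the subunit through which ATP acts on the enzyme, was at 300.4 and 336.8 RPKM in dF1 and 277.4 and 304 RPKM in wt (log2 fold change 0.13, SE 0.15). Cox6a1 was at 94.9 and 86.9 RPKM in dF1 and 91.7 and 74.9 RPKM in wt (0.13, SE 0.15). Cox8a, the smallest of these subunits, was at 68.9 and 79.9 RPKM in dF1 and 66.8 and 89.9 RPKM in wt (-0.06, SE 0.18). The dF1 and wt values overlapped for each of these genes. Cox5a, a subunit on the matrix side, was at 48.3 and 69.4 RPKM in dF1 and 50.3 and 42.5 RPKM in wt (0.32, SE 0.21). Cox7a2 was at 31 and 35.8 RPKM in dF1 and 33 and 26 RPKM in wt (0.18, SE 0.16). Cox5b, a zinc-binding subunit on the matrix side, was low at 1.1 and 2.2 RPKM in dF1 and 2.5 and 1.9 RPKM in wt (-0.30, SE 0.25). These too overlapped between dF1 and wt.

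By limma, 0 of the 6 tested genes passed at an adjusted p of 0.05, and their adjusted p lay between 0.808 (Cox5a) and 0.957 (Cox8a). Cox7a1 was below the filter. Among all 12215 transcripts tested 0 passed (0%), and 875 (7.16%) had an unadjusted p under 0.05, of which 0 were among the 6. Their median log2 fold change was 0.13, with 4 positive and 2 negative, against 0.01 over all tested transcripts. An adjusted p above the threshold does not show that the levels were equal.

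In the dF4 library Cox4i1, Cox5a, Cox6a1, Cox7a2 and Cox8a were present at levels near those of wt. All but Cox8a lay above both wt libraries. The share of all transcripts that did so is not given, so this is not read as a shared rise. Cox4i1 was at 343.1 RPKM in dF4 (95% Poisson interval 288 to 404, about 140 reads), against 277.4 and 304 RPKM in wt. Cox6a1 was at 128.3 RPKM in dF4 (91.8 to 174, 41 reads), against 91.7 and 74.9 RPKM in wt. Cox5a was at 64.9 RPKM in dF4 (42.7 to 94.3, 27 reads), against 50.3 and 42.5 RPKM in wt. These intervals include a wt value for Cox4i1 and Cox5a and begin just above the higher wt value for Cox6a1. Cox8a was at 61.3 RPKM in dF4 (37.4 to 94.5, 20 reads), against 66.8 and 89.9 RPKM in wt. Cox7a2 was at 37.6 RPKM in dF4 (21.9 to 60.1, 17 reads), against 33 and 26 RPKM in wt. Both intervals include the wt values.

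By size, a transcript was counted as different in dF4 when it lay outside both wt libraries by at least 1 on the log2(RPKM + 1) scale from their mean, given an average of 5 RPKM or more and wt libraries within 0.5 of each other. Of the 7867 transcripts that could be counted, 7.75% were higher and 10.4% lower in dF4, and Cox4i1, Cox5a, Cox6a1, Cox7a2 and Cox8a were not among them (differences of -0.33 to 0.62). Cox6a2 could not be counted, because its wt libraries lay 0.67 apart, but with no limit on that spread it was counted as lower, as were 10.7% of 8759 transcripts. Its difference was -8.28, a value that depends on the pseudocount because dF4 is at 0. Cox5b was below the mean of 5 RPKM. It was at 8.8 RPKM in dF4 (1.81 to 25.6, 3 reads), against 2.5 and 1.9 RPKM in wt, and 3 reads do not allow a firm statement. With a mean of at least 1 RPKM it was counted as higher, as were 12% of 10777 transcripts. The genes with profiles nearest to Cox5b were Tmem107 (distance 0.11), Ube2c (0.11), Depdc1b (0.12), Dna2 (0.13) and Zfp64 (0.13), where the median gene lay at 0.77. These distances are set mostly by the dF4 library, where Cox5b rests on 3 reads, and Tmem107, Dna2 and Zfp64 reached the average of 5 RPKM through their dF4 values.

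The subunit genes differed widely in transcript level per length. Cox6a1 and Cox6a2 encode alternative forms of the same subunit, as do Cox7a1 and Cox7a2, so these do not each stand in equal numbers with the others. The subunits of Cox4i1, Cox8a, Cox5a and Cox5b do stand in equal numbers in the assembled enzyme. Their wt means were 290.7, 78.35, 46.4 and 2.2 RPKM. In wt the order by mean RPKM was Cox6a2, Cox4i1, Cox6a1, Cox8a, Cox5a, Cox7a2, Cox5b and Cox7a1. Cox6a2 and Cox4i1 overlapped in wt, as did Cox6a1 and Cox8a, and the other neighbours did not. In dF1, Cox4i1 was above Cox6a2 in both libraries, and Cox8a overlapped Cox5a and Cox5b overlapped Cox7a1. Cox4i1 was at percentile 99.7 to 99.8 of all transcripts in the 5 libraries, whereas Cox5b was at percentile 56.9 and 60.9 in dF1, 73.8 in dF4, and 61.5 and 60.0 in wt. The Cox5b transcript matched 1 other annotated gene (Gm11273) at 95% identity or more over at least 100 bases, Cox5a matched Gm26631, and Cox4i1 matched Emc8. How reads were shared among such genes is not given, and the part this has in the levels of Cox5b, Cox5a and Cox4i1 was not tested.

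No other subunit passed the test in dF1. Of 11 further subunit genes, 4 were listed at 0 in all libraries, namely Cox4i2, Cox7b2, Cox8b and Cox8c, which are isoforms of lung, testis or muscle. Of the 7 tested, 0 passed, with 7 positive differences and a median of 0.40, against 0.01 over all transcripts. The largest were Cox6c (28 and 34.7 RPKM in dF1, 30.1 and 15.6 RPKM in wt), Ndufa4, first described as a complex I subunit (61.6 and 87.1 RPKM in dF1, 69.8 and 40.2 RPKM in wt), Cox7a2l, a factor of respiratory supercomplexes (20.5 and 23.9 against 21.2 and 12.6 RPKM), and Cox7b (13 and 11.7 against 13.3 and 6.1 RPKM). In all 4 genes wt replicate 2 was the lowest of the dF1 and wt libraries, and the groups overlapped. The 12 NK cell markers moved alike, with 12 positive differences of dF1 from wt (median 0.66) and sums of 3228 and 2853 RPKM in dF1 and 2688 and 1276 RPKM in wt, the lowest again in wt replicate 2. Their part in the subunit values was not tested. The adjusted p of the 4 genes by limma lay between 0.804 and 0.847. Cox6c, Cox7a2l, Cox7b and Cox7c each matched 1 or 2 annotated pseudogenes, so their values are uncertain.

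In dF4 the testis isoform Cox6b2 stood out among those subunits. It was at 45.4 RPKM in dF4 (25.0 to 80.1, 13 reads), against 3.6 and 2.8 RPKM in dF1 and 2 and 4.6 RPKM in wt. Its second transcript, which overlaps the first, was at 39.8 RPKM in dF4, 3.8 and 3.4 RPKM in dF1 and 2.1 and 6 RPKM in wt. It lay 3.50 above the wt mean on the log2(RPKM + 1) scale, but was not counted because the wt libraries lay too far apart. The broadly expressed form Cox6b1 was at 135.1 RPKM in dF4 (96.7 to 183), 113.3 and 115.4 RPKM in dF1, and 130.9 and 94.8 RPKM in wt. Over the 6 genes averaging 5 RPKM or more the median difference of dF4 from wt was 0.20, against 0.00 over all such transcripts. Cox6b2 entered this group only through its dF4 value, and without it the median over 5 genes was 0.13. Of these 6 genes 1 could be counted, Cox6b1, and it was not different by size. Cox7a2l was at 11.6 RPKM in dF4 (8 reads), and Cox7c at 4.2 RPKM (1 read).

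Assembly factors of the enzyme were measured as a separate group of 18 genes, including cytochrome c itself. In dF1, 0 of 17 tested passed, with a median of 0.03. Cox14, an assembly factor, was at 36.2 and 29.8 RPKM in dF1 and 31.2 and 22.8 RPKM in wt, and Cox20, a chaperone of a core subunit, was at 26.3 and 28.6 RPKM in dF1 and 31.7 and 33.6 RPKM in wt. Cox20 was the 1 tested gene of this group whose dF1 and wt libraries did not overlap, where 34.7% of transcripts did the same. Taco1, an activator of core subunit translation, was at 7.2 and 9.9 RPKM in dF1 and 10 and 9.6 RPKM in wt.

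In dF4, 2 of the 14 assembly genes that could be counted were higher and 1 was lower by size, where 7.75% of all countable transcripts were higher and 10.4% lower, so these counts are near the background. Cox17, the copper chaperone of the mitochondrial intermembrane space, was at 128.1 RPKM in dF4 (89.7 to 181, 34 reads), against 27.6 and 45.2 RPKM in dF1 and 31.9 and 27.7 RPKM in wt. Cox19, a factor of copper delivery, was at 32.9 RPKM in dF4 (18.4 to 54.2, 15 reads), against 15 and 19.7 RPKM in dF1 and 16.5 and 14.3 RPKM in wt. Both were above all other libraries. Cox14 was at 4.6 RPKM in dF4 (0.559 to 16.7, 2 reads), against 31.2 and 22.8 RPKM in wt. The median difference over these 14 genes was 0.15. Cell type markers moved in the same library, with 14 of 14 neutrophil and 10 of 10 erythroid markers above both wt libraries. The share of all transcripts above both wt libraries is not given. By size, 2 neutrophil markers could be counted and 2 were higher, and 0 erythroid markers could be counted. The erythroid sum was 946 RPKM in dF4, 70.9 and 85.2 RPKM in dF1, and 57.9 and 68.0 RPKM in wt. The part of these markers in the values of the assembly genes was not tested. Cycs, which encodes cytochrome c, was at most 0.3 RPKM in every library, and how reads of its processed copies were treated is not given.

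**Figure D4:**
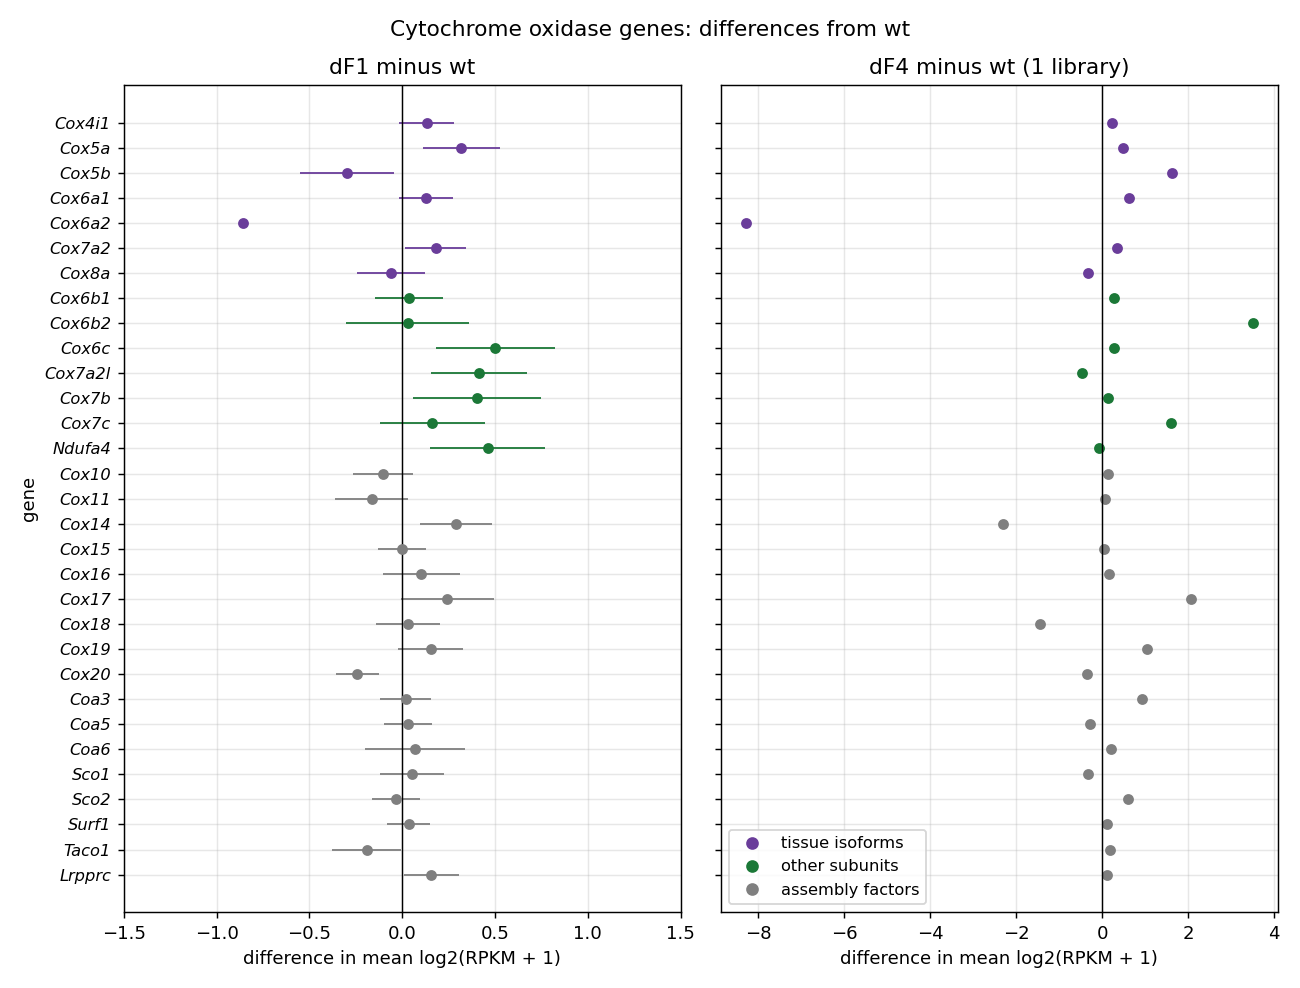
Difference in mean log2(RPKM + 1) from wt (x axis) for cytochrome oxidase genes with a mean of at least 1 RPKM (y axis), for dF1 (left, bars are the standard errors from limma, none for Cox6a2) and dF4 (right, 1 library, no error). The tissue isoforms are purple, the other subunits green and the assembly factors grey. Cox6a2 is the lowest point in both panels, at -0.86 and -8.28, and Cox6b2 and Cox17 are the highest in dF4, at 3.50 and 2.07.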

How the data were processed

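The values are RPKM per RefSeq transcript, made by the authors and written to 1 decimal, per the file headers. Per the submitters' processing notes, TopHat and bedtools were used with the build mm9. Tool versions, counting, strand use and the treatment of reads that match several places were not stated there. The table's 1 line that names no gene was left out. The dF1 and wt libraries were compared on log2(RPKM + 1) by a two-sided test in limma 3.58.1 (eBayes with a trend, R 4.3.3). All 12215 transcripts averaging 1 RPKM or more across the 5 libraries entered, p-values were adjusted by Benjamini-Hochberg, and the threshold was 0.05. Only the cytochrome oxidase genes are printed. The script was tested on simulated data.

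The step of 1 read in the dF4 library was 1.67 RPM, with 82.5% of 2754 low values whole within 0.1 read. That step could not be found in the other libraries. Poisson intervals are exact and at 95%, and the floor is 3 reads. Genes of the lists were matched by symbol or RefSeq accession, 25909 of 26531 transcripts having one in RefSeq GRCm38.p6. Close copies were sought with blastn 2.17.0 among GENCODE M21 transcripts. No coordinates of the table's own build are used.

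The members and lists were chosen with earlier results of these data known. The naming rule took all 8 members, the 5 nearest profiles of each member with a range of at least 2 on the log2 scale (Cox6a2 and Cox5b), and, from each list, genes past the threshold or size rule, or else up to 4 with the largest difference. Alternatives were other pseudocounts, filters, scalings and variances, a replicate block and leaving out each replicate.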

Additional observations from a re-analysis of the deposited data

How the results depend on the processing

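None of the 6 tested cytochrome oxidase genes passed between dF1 and wt in any of 71 alternative fits (lowest adjusted p by limma 0.45), and the sign of the difference was kept in 67, the exceptions being Cox5b, Cox6a1 and Cox8a. Of these fits 24 left a group with 1 library, whose spread is then taken from the other group, and since the design called 0 transcripts, the lack of calls says little about stability. Over all transcripts, the filter at 5 RPKM called 13 higher and 12 lower in dF1 and robust variances 16 higher and 17 lower, of which 0 were cytochrome oxidase genes, and the cause was not tested. The other alternatives, leaving out each replicate included, called 0 higher and 0 lower. With the replicate block 0 passed. The replicate numbers shared by dF1 and wt are not stated to mark a litter or a day, and same-numbered deviations correlated at 0.305, over 2 pairs. The Cox6a2 difference of dF1 from wt was negative in 12 of 12 fits. Both dF1 values lie below both wt values, so leaving out a library or changing the pseudocount could not reverse its sign. The count is therefore no sign of stability.

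For dF4 against wt, the counts over all transcripts were 610 higher and 818 lower. They were 1289 and 1306 with a mean of at least 1 RPKM, where more transcripts are considered, 533 lower with a pseudocount of 5, and between 769 and 992 higher and between 935 and 1010 lower without a wt replicate, where no limit on the wt spread applies. The Cox6a2 difference was -11.60 with a pseudocount of 0.1, -5.98 with a pseudocount of 5 and -7.43 against dF1. The isoform shares did not depend on how transcripts were joined, since each gene has 1. The depth of dF4 limits low values there, with floors of 6.62 to 13.6 RPKM for the 8 genes.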
